A study of Homo sapiens with 5 samples.

Results

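A list of 40 genes of mitosis was followed in clones of CP70, a cisplatin-resistant derivative of the human ovarian cancer line A2780. The genes were chosen by symbol and act from mitotic entry to cytokinesis. A gene's value is that of the probe set that carries its symbol alone, taking the set with the highest mean over the arrays where there were several. Of the 40, 39 have such a probe set, 1 each, and all 39 passed the filter on low values, among 15396 genes that passed it in the whole table. BUB1B, a kinase-like protein of the spindle checkpoint, is covered only by a probe set that it shares with another gene, PAK6, and no value is given for it.

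The study asked which genes change when DDB2, a damaged-DNA binding protein, is put back into cells that have little of it. The 3 DDB2 clones, titled 1, 2 and 3, are CP70 cells that stably carry a DDB2 expression vector (pcDNA3.1 with a His tag), and the 2 vector clones, titled 1 and 3, carry the empty vector. RNA of each clone was hybridized once to a GeneChip Human Transcriptome Array. All lines share the CP70 background, and each is a single clone, so that what sets a clone apart and what DDB2 does to it cannot be told apart within one line. The labels do not say which array belongs to which of the study's named DDB2 clones, and the source name of vector clone 3 numbers it as clone 2. DDB2 itself stood at 9.87, 9.00 and 9.14 in the DDB2 clones against 7.84 and 7.25 in the vector clones on the log2 scale of the deposited values, so that every clone fits its label. Of 12 markers listed for ovarian cancer epithelium, 9 exceeded the filter level of 4.48 on at least 2 arrays and WT1, CDH1 and ESR1 did not. The 9 include VIM and CDH2, which are mesenchymal genes, and CDH2 was over the level on only 2 arrays. EPCAM, an epithelial adhesion molecule, had 5.53, 5.44 and 5.29 in the DDB2 clones against 7.26 and 5.86 in the vector clones, a difference that passed the thresholds of the study, and its part in the results was not tested.

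Genes of mitosis are transcribed in a wave that builds up in G2 phase and is shut off again in G1. MuvB proteins hold the promoters silent in resting cells as part of the DREAM complex and activate them later together with B-MYB and FOXM1. Most of these promoters carry the cell cycle genes homology region, a short element bound by MuvB, and CCAAT boxes bound by NF-Y a little upstream. Because the wave runs only in dividing cells, the RNA of these genes is widely used as a measure of proliferation in tumours. In RNA of whole cultures, fewer cells in G2 phase or mitosis and less RNA in each of them cannot be told apart.

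The promoters of 6 genes are printed because the results turn on these genes or on the contrast between them: CDC20 and CCNB2 had the largest differences between the groups, CCNA2 and ECT2 are among those whose groups did not overlap, MKI67 is the standard proliferation marker and ANLN had a fold change near 0 on the log2 scale. Each line is the 130 bases before the transcription start in RefSeq (GRCh38.p14), read 5′ to 3′ on the strand of the gene, and capitals mark CCAAT and the element TTTGAA or TTCGAA on either strand (ATTGG and TTCAAA or TTCGAA when read from the other strand). They lie at chr1:43358851-43358980 on the plus strand (CDC20), chr15:59105016-59105145 on the plus strand (CCNB2), chr4:121823884-121824013 on the minus strand (CCNA2), chr10:128126424-128126553 on the minus strand (MKI67), chr3:172750596-172750725 on the plus strand (ECT2, the first of 2 listed promoters) and chr7:36389732-36389861 on the plus strand (ANLN).
CDC20: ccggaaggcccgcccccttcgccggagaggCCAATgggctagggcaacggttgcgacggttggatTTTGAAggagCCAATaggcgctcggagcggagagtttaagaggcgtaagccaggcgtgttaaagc
CCNB2: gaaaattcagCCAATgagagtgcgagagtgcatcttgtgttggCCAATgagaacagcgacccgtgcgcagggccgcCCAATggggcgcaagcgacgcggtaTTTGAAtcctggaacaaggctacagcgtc
CCNA2: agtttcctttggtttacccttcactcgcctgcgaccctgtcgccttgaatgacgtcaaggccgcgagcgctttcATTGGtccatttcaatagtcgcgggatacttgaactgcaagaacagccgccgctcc
MKI67: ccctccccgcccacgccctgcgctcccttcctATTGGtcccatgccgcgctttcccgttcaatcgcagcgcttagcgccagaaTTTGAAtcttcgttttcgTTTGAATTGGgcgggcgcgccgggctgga
ECT2: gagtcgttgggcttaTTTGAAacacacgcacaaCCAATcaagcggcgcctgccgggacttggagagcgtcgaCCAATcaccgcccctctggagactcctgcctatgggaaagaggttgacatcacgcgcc
ANLN: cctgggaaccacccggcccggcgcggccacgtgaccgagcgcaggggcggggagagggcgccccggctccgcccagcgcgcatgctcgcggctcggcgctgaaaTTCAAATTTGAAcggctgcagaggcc
In CDC20, CCNB2, MKI67 and ECT2 a TTTGAA stands in the same stretch as CCAAT boxes, and the CCNA2 stretch has a CCAAT alone. The TTTGAA nearest the MKI67 start shares 1 base with a CCAAT read from the other strand, and the ANLN stretch has TTTGAA in both directions and no CCAAT. The 6 genes were picked after their values were seen, and a link between these letters and the fold changes was not tested.

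RefSeq promoters of 33 of the 40 genes were at hand, and BIRC5, TTK, TPX2, UBE2C, FOXM1, BUB3 and AURKA are named only. Within 250 bases before and 50 bases after the start, CCAAT was found on either strand in 28 of the 33 genes, against 41.5% of 10987 tested genes with a promoter. TTTGAA was found in 24 of the 33, against 13.0%, and TTCGAA in 2, BUB1 and CDC25B, against 2.18%. Both CCAAT and one of the other elements were found in 23 genes, against 6.13% of the tested genes and 6.38% of all 35116 promoters. CENPE and KIF2C had none of these letters in this window, and CCNB1, CCNA2, AURKB, KIF20A and PTTG1 had CCAAT alone. A match of letters is a description of the window and not a binding site.

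The mitosis genes were a little lower on average in the DDB2 clones, and no gene was called. Of the 39 genes, 38 had a log2 fold change (DDB2 over vector) below 0, against 54.6% of all genes, and the median was -0.32, against -0.02 over all genes. The values ranged between -0.88 for CDC20 and 0.00 for ANLN. None passed the thresholds that the study used, more than a 2-fold change with an unadjusted P under 0.05, which 0.195% of all genes passed in the lower and 0.169% in the higher direction. A single gene, ECT2, had an unadjusted P under 0.05 and was lower, where 1.55% of all genes were lower and 1.36% were higher by that rule. In 5 genes, CCNA2, ECT2, TPX2, BUB3 and INCENP, all 3 DDB2 clones lay below both vector clones, 12.8% of the members, close to the 12.5% of all genes, and in 0 genes did they lie above them (5.93% of all genes). With limma and Benjamini-Hochberg adjustment over all 34141 probe sets that passed the filter, the adjusted p was 0.999 for every member except ANLN, where it was 1.000. The labels name separate clones, and the p-values measure only the spread between these 5 arrays, whose number limits the precision.

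**Figure D1:**
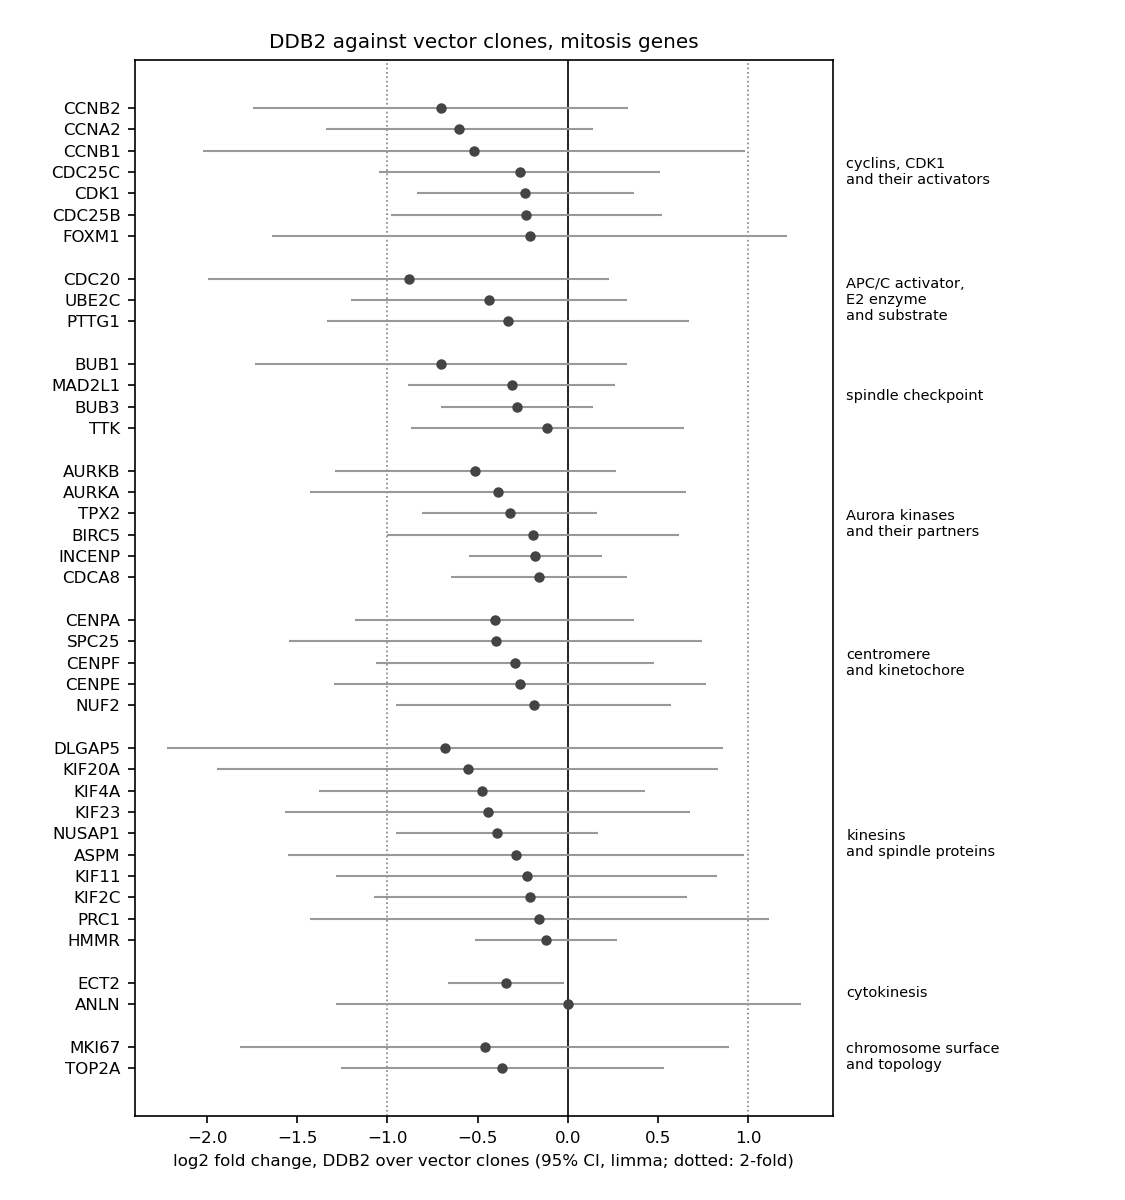
The points are log2 fold changes of DDB2 over vector clones for the 39 mitosis genes, grouped by role, and the bars are 95% confidence intervals from limma. All points but that of ANLN lie below 0, and only the interval of ECT2 does not reach 0.

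In 38 of 39 genes the widest range within a group exceeded the distance between the group means, against 89.9% of all genes. DDB2 clone 2 had the lowest value of the 5 clones in 35 of 39 genes, against 18.8% of all genes, and lay below the gene's mean in 39 of 39. Vector clone 3 had the highest value in 29 of 39, against 27.3% of all genes, and DDB2 clone 3 was second highest in 25. The median distance from a gene's mean over the 5 arrays was -0.06, -0.62 and 0.24 log2 units in DDB2 clones 1, 2 and 3, and 0.01 and 0.46 in vector clones 1 and 3. Over all genes, these medians lay between -0.01 and 0.02. The lowest of these medians was that of a DDB2 clone and the highest that of a vector clone, with the other 3 clones in between.

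**Figure D2:**
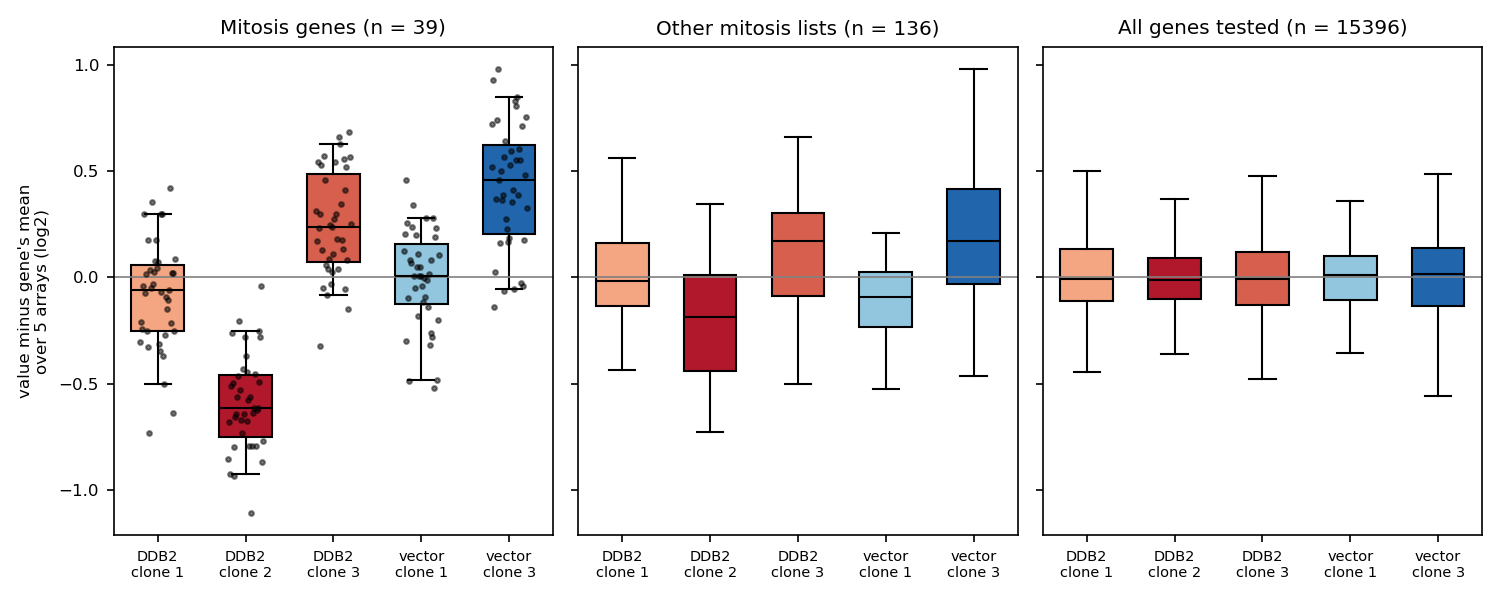
Each box shows, for 1 clone, the value of a gene minus its mean over the 5 arrays on the log2 scale, for the 39 mitosis genes (points are genes), 136 further mitosis genes and all 15396 genes. Boxes span the quartiles with the median as a line, and whiskers the 5th to 95th percentile; DDB2 clone 2 is low and vector clone 3 high in the mitosis genes, at medians of -0.62 and 0.46, and all boxes centre near 0 over all genes.

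**Figure D3:**
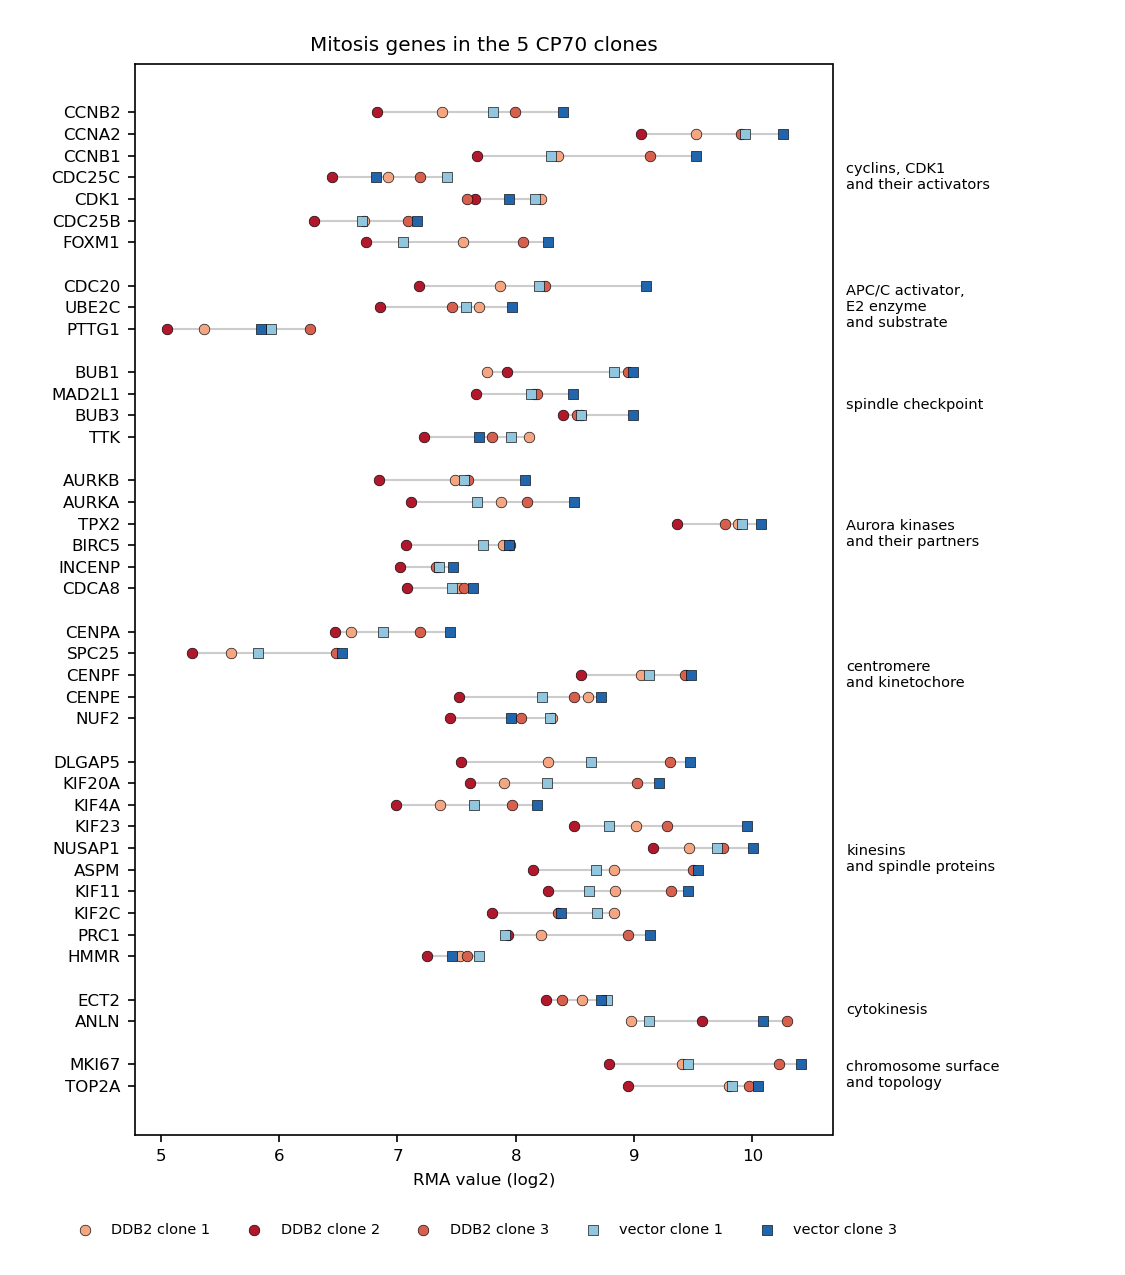
RMA values on the log2 scale of the 39 mitosis genes in the 3 DDB2 clones (circles) and 2 vector clones (squares), grouped by role, with a grey line over the range of each gene. DDB2 clone 2 is the leftmost point in 35 rows and vector clone 3 the rightmost in 29, and levels of different genes are not comparable, since they come from different probes.

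The cyclins, CDK1 and their activators drive entry into mitosis. All 7 had fold changes below 0, with a median of -0.27. CCNB2, a B-type cyclin that binds CDK1, had 7.37, 6.83 and 7.99 in DDB2 clones 1, 2 and 3 against 7.80 and 8.40 in vector clones 1 and 3 (log2 values, as in all that follow). DDB2 clone 3 lay between the vector clones, so the groups overlapped, and the log2 fold change was -0.70 (standard error, SE, 0.397, 95% confidence interval, CI, -1.74 to 0.33). CCNA2, the cyclin of S phase and G2, had 9.53, 9.06 and 9.91 in the DDB2 clones against 9.94 and 10.26 in the vector clones. Here the highest DDB2 clone and the lowest vector clone almost met, and the log2 fold change was -0.60 (SE 0.282). CCNB1, the main partner of CDK1 at mitotic entry, had 8.35, 7.67 and 9.14 in the DDB2 clones against 8.29 and 9.52 in the vector clones. Its vector clones were 1.23 apart and enclosed 2 of the 3 DDB2 clones, at a log2 fold change of -0.52 (SE 0.575).

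CDK1, the kinase of mitotic entry, was the only member with its lowest value in DDB2 clone 3. It had 8.21, 7.65 and 7.59 in the DDB2 clones against 8.17 and 7.94 in the vector clones, and was highest in DDB2 clone 1. FOXM1, a transcription factor of G2 genes, had 7.55, 6.74 and 8.06 in the DDB2 clones against 7.05 and 8.28 in the vector clones, with both clones titled 3 on top. Its log2 fold change of -0.21 had an SE of 0.546. The CDK1-activating phosphatases CDC25B and CDC25C had log2 fold changes of -0.23 and -0.27, and CDC25C was highest in vector clone 1.

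CDC20, UBE2C and PTTG1 work with the anaphase-promoting complex (APC/C), the ubiquitin ligase that ends mitosis: CDC20 activates it, UBE2C is the ubiquitin-conjugating enzyme it uses, and PTTG1 (securin) is a substrate that it marks for destruction. CDC20 had 7.87, 7.18 and 8.25 in the DDB2 clones against 8.20 and 9.10 in the vector clones. It was 1.84-fold lower in the DDB2 clones on average, at a log2 fold change of -0.88 (SE 0.425, 95% CI -1.99 to 0.23), but DDB2 clone 3 lay above vector clone 1. UBE2C had a log2 fold change of -0.44 and was lowest in DDB2 clone 2 at 6.86. PTTG1, which holds separase in check, had 5.36, 5.05 and 6.26 in the DDB2 clones against 5.93 and 5.85 in the vector clones. Its vector clones nearly coincided, the DDB2 clones lay on both sides of them, and the log2 fold change was -0.33 (SE 0.383).

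The spindle checkpoint delays anaphase until all chromosomes are attached. BUB1, a checkpoint kinase at the kinetochore, had 7.76, 7.93 and 8.95 in the DDB2 clones against 8.83 and 8.99 in the vector clones. DDB2 clones 1 and 2 were low and DDB2 clone 3 was at the level of the vector clones, which gave a log2 fold change of -0.70 (SE 0.394). BUB3, the partner of BUB1 that binds phosphorylated kinetochores, had 8.55, 8.40 and 8.52 in the DDB2 clones against 8.55 and 8.99 in the vector clones. Its standard deviation among DDB2 clones, 0.0817, was the smallest of all members, and DDB2 clone 1 and vector clone 1 differed only in the third decimal. MAD2L1, which binds CDC20 while the checkpoint is active, had a log2 fold change of -0.31. TTK, the kinase MPS1 that starts the checkpoint, had 8.11, 7.23 and 7.80 in the DDB2 clones against 7.96 and 7.69 in the vector clones, and was highest in DDB2 clone 1 (log2 fold change -0.11).

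Aurora kinases and their partners build the spindle and correct attachments. AURKB, the kinase of the chromosomal passenger complex, had a log2 fold change of -0.51 (SE 0.298), and its partners INCENP, CDCA8 (borealin) and BIRC5 (survivin) had -0.18, -0.16 and -0.19. INCENP, the scaffold of the complex, had 7.35, 7.02 and 7.33 in the DDB2 clones against 7.35 and 7.47 in the vector clones. The groups did not overlap, though DDB2 clone 1 and vector clone 1 were within 0.01. CDCA8 had 7.52, 7.08 and 7.56 in the DDB2 clones against 7.46 and 7.64 in the vector clones, with only DDB2 clone 2 outside the range of the vector clones. AURKA, the kinase of the centrosome, had a log2 fold change of -0.39. TPX2, which activates AURKA on the spindle, had 9.88, 9.37 and 9.77 in the DDB2 clones against 9.91 and 10.07 in the vector clones. The TPX2 groups did not overlap, though DDB2 clone 1 and vector clone 1 almost met, and the log2 fold change was -0.32 (SE 0.185).

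Of the 5 centromere and kinetochore genes, all had fold changes below 0 and DDB2 clone 2 was lowest in each. CENPA, the histone H3 variant of centromeres, had a log2 fold change of -0.41, and SPC25, a subunit of the NDC80 complex that holds microtubules, had -0.40. CENPF, a kinetochore protein that accumulates in G2, had -0.29, and CENPE, a kinesin that moves chromosomes to the spindle equator, had -0.26. NUF2, another subunit of the NDC80 complex, had -0.19 and was highest in DDB2 clone 1. SEs in this group lay between 0.292 for NUF2 and 0.437 for SPC25.

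The largest group, 10 kinesins and spindle proteins, showed a median of -0.34 for the log2 fold change, and in 0 of them the groups stood apart. DLGAP5, which bundles microtubules near chromosomes, had 8.27, 7.54 and 9.30 in the DDB2 clones against 8.63 and 9.47 in the vector clones. The step between DDB2 clones 3 and 2, 1.77, was larger than the difference of the groups, -0.68 (SE 0.589). KIF20A, a kinesin of the central spindle, had 7.90, 7.61 and 9.03 in the DDB2 clones against 8.26 and 9.21 in the vector clones, with both clones titled 3 above the other 3 (log2 fold change -0.56). KIF4A, which shortens central spindle microtubules, had a log2 fold change of -0.47, KIF23, a motor of the centralspindlin complex, -0.44, NUSAP1, a microtubule binding protein, -0.39, and ASPM, of the spindle poles, -0.29. KIF11, the motor that separates spindle poles, had -0.23, and KIF2C, which takes microtubules apart at centromeres, had -0.21 and was highest in DDB2 clone 1.

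PRC1, which crosslinks microtubules in the spindle midzone, had 8.21, 7.94 and 8.94 in the DDB2 clones against 7.91 and 9.14 in the vector clones. It was the only member with its lowest value in vector clone 1, and its vector clones, 1.23 apart, enclosed all 3 DDB2 clones. HMMR, a hyaluronan receptor that also binds spindle microtubules, had 7.53, 7.25 and 7.59 in the DDB2 clones against 7.69 and 7.46 in the vector clones, at a log2 fold change of -0.12.

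Cytokinesis was represented by the gene with the smallest spread between vector clones and by the gene with the smallest difference between the groups. ECT2, the exchange factor that activates RhoA at the cleavage furrow, had 8.56, 8.26 and 8.39 in the DDB2 clones against 8.78 and 8.72 in the vector clones. All DDB2 clones lay below both vector clones, by a mean of -0.34 log2 units (SE 0.122, 95% CI -0.66 to -0.02), or 1.27-fold. It was the only member whose group means were further apart than the widest range within a group. In an exact two-sided permutation test over the 10 arrangements of the arrays, ECT2 had p = 0.2, where the smallest p the design allows is 0.1. With the clone numbers as a replicate block, ECT2 did not have an unadjusted P under 0.05, whether the numbers came from the titles (log2 fold change -0.27) or from the source names (-0.34). ANLN, which links actin to the contractile ring, had 8.98, 9.58 and 10.30 in the DDB2 clones against 9.13 and 10.09 in the vector clones. The clones titled 1 were low and those titled 3 high in both groups, and the log2 fold change was 0.00 (SE 0.493, 95% CI -1.29 to 1.29).

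MKI67, which coats mitotic chromosomes and is the standard marker of dividing cells, had 9.41, 8.79 and 10.22 in the DDB2 clones against 9.46 and 10.41 in the vector clones. Clones with the same title number lay close together, and DDB2 clone 2 stood below all others. Its log2 fold change was -0.46 (SE 0.518). TOP2A, the topoisomerase that untangles sister chromatids, had 9.81, 8.95 and 9.97 in the DDB2 clones against 9.83 and 10.05 in the vector clones. Only DDB2 clone 2 was apart, and the log2 fold change was -0.36 (SE 0.342).

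Set clone against clone, the direction depended on the pair. DDB2 clone 2 was lower than vector clone 3 in 39 of 39 genes (median -1.07) and lower than vector clone 1 in 37 (median -0.58). DDB2 clone 1 was lower than vector clone 3 in 33 genes (median -0.54), but lower than vector clone 1 in only 22 (median -0.02). DDB2 clone 3 was lower than vector clone 3 in 32 genes (median -0.19) and higher than vector clone 1 in 27 (median 0.19). Within the groups, DDB2 clone 3 exceeded DDB2 clone 2 by a median of 0.85, and vector clone 3 exceeded vector clone 1 by 0.44 and in 31 of 39 genes. Both clones titled 3 lay above the other 3 clones in 25 genes, against 19.7% of all genes, and vector clone 1 lay inside the range of the DDB2 clones in 31, against 55.5%. The commonest order from high to low was vector 3, DDB2 3, vector 1, DDB2 1, DDB2 2, found in 12 of 39 genes and 2.07% of all genes.

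The median and the counts moved when 1 clone was left out. Without DDB2 clone 2 the median was -0.12 and 29 genes were below 0 (53.8% of all genes). Without vector clone 3 the values were -0.13 and 29 (53.2% of all genes). Without DDB2 clone 3 the median was -0.50 with 39 of 39 below 0 (54.4% of all genes). In that setting 6 members had an unadjusted P under 0.05, of which BUB1 and CCNB2 also passed the 2-fold threshold. Over all 34141 probe sets, 1347 had such a P without DDB2 clone 3 and 1097 with all arrays. The share of all genes past both thresholds in that setting is not given here. Without DDB2 clone 1 the median was -0.39 with 38 below 0 (56.8% of all genes). Without vector clone 1 it was -0.54 with 37 below 0 (54.7% of all genes). With 1 clone left out, ECT2 had an unadjusted P under 0.05 only where that was DDB2 clone 1.

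The spread within each group was wide for these genes. The median standard deviation among DDB2 clones was 0.490 over the members and 0.158 over all genes, and 37 of 39 members exceeded that all-gene median. It was largest for DLGAP5 (0.888), KIF20A (0.748) and CCNB1 (0.735). The 2 vector clones were a median of 0.465 apart, against 0.201 over all genes, and PRC1, CCNB1 and FOXM1 differed most between them, by 1.23 each. Wide spread was not particular to the members. Over 136 tested genes of further mitosis lists, described below, the 2 medians were 0.314 and 0.390. Of these genes, 108 exceeded the all-gene median standard deviation. The 8 condensin genes among them had medians of 0.473 and 0.568. Without DDB2 clone 2 the median standard deviation over the 2 DDB2 clones left was 0.265. No value over all genes for the same 2 clones is given, so it cannot be set against 0.158. CD68, a macrophage gene that was the only one of 4 leukocyte markers over the filter level, also varied, with values of 6.12, 6.30 and 7.33 in the DDB2 clones and of 6.65 and 7.21 in the vector clones. The leukocyte markers PTPRC, CD3E and CD14 were under the level, and the summed linear signal of the list lay between 108 and 203 in the DDB2 clones and between 140 and 191 in the vector clones. Its part in the results was not tested.

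**Figure D4:**
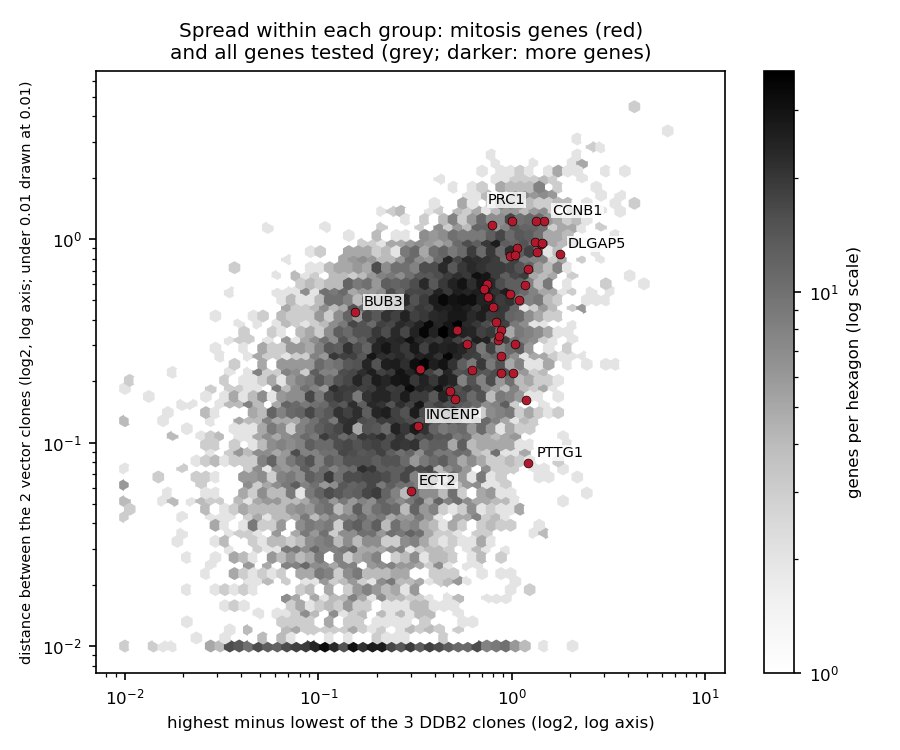
The range of the 3 DDB2 clones (horizontal) against the distance between the 2 vector clones (vertical), on log axes in log2 units, for 39 mitosis genes (red) and all 15396 genes (grey hexagons). Most mitosis genes lie to the upper right, with 37 over the all-gene median in standard deviation among DDB2 clones and 33 in distance between vector clones; BUB3, ECT2 and INCENP have the narrowest DDB2 ranges of the members.

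Other genes of mitosis showed the pattern in part. Of 148 genes in 8 further lists, 136 were tested, with 87 fold changes below 0 (64.0%, against 54.6% of all genes) and a median of -0.07 on the log2 scale. In none of these lists was a gene past the thresholds of the study, and 3 genes had an unadjusted P under 0.05, a share of 2.21%, below the 2.92% of all genes. HAUS6, of the augmin complex that branches spindle microtubules, was lower, with 7.47, 7.55 and 7.42 in the DDB2 clones against 7.75 and 7.93 in the vector clones. CHEK1, a checkpoint kinase that holds back mitotic entry, was higher, with 7.45, 7.44 and 7.43 in the DDB2 clones against 7.05 and 6.81 in the vector clones. GADD45B, a stress-induced inhibitor of CDK1, was also higher, at a log2 fold change of 0.45. All 3 had an adjusted p of 0.999 from limma.

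The condensin subunits, which compact mitotic chromosomes, came closest to the members in median fold change. Their median was -0.18 with 7 of 8 below 0, and the clones stood at -0.05, -0.47 and 0.40 in DDB2 clones 1, 2 and 3 and at -0.25 and 0.37 in vector clones 1 and 3. DDB2 clone 2 was lowest in 6 of the 8, and DDB2 clone 3 was highest in 4 and vector clone 3 in 3. NCAPH had a log2 fold change of -0.47 and NCAPD3 was the exception at 0.46. The 30 kinetochore genes had a median of -0.07, with NSL1 at 0.28 and ZW10 at -0.37. The 28 genes of spindle, centrosome and cytokinesis had -0.14, with 24 below 0 and NUMA1 at 0.36. In these 2 lists DDB2 clone 2 was lowest in 18 and 16 genes, against 18.8% of all genes. Vector clone 3 was highest in 16 and 15, against 27.3%. Subunits and regulators of the APC/C, the complex that CDC20 activates, did not show the pattern. Their median was 0.04 with 8 of 16 below 0, and every clone lay between -0.05 and 0.10, with ANAPC7 at 0.32 and ANAPC4 at 0.22. Cohesin and separase had a median of 0.01 (SGO2 -0.51, MAU2 0.27), DREAM, E2F and NF-Y factors -0.07 (RB1 0.33, LIN9 -0.24), brakes of mitotic entry -0.05, and the Greatwall pathway with further cyclins -0.10 (ENSA 0.34, CCNF -0.31).

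**Figure D5:**
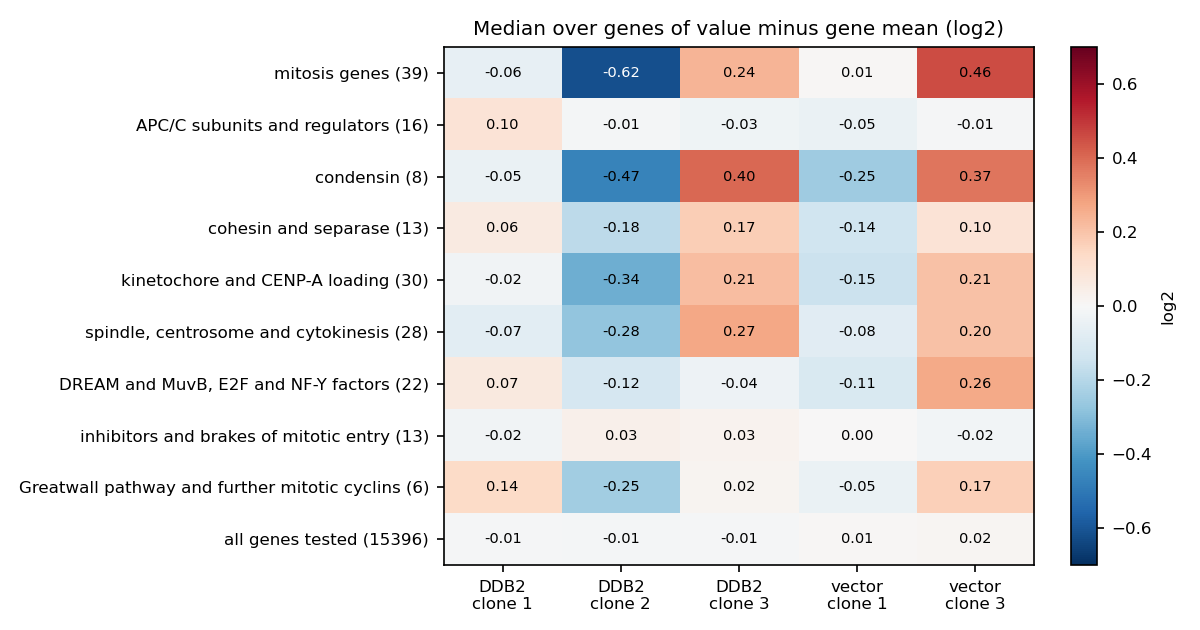
Median distance from the gene's mean over the 5 arrays, in log2 units, for each clone (columns) and gene list (rows, number of tested genes in brackets). The mitosis genes run between -0.62 in DDB2 clone 2 and 0.46 in vector clone 3, condensin follows, and the APC/C subunits and the brakes of mitotic entry stay near 0.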

How the data were processed

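RNA of 5 CP70 clones, 3 with DDB2 and 2 with the empty vector, was measured on 1 array each. Background was corrected and probes were normalized and summarized by RMA in Affymetrix software by the authors. The deposited table is taken to be in log2 units, from the range of its values, and was not rescaled. The software versions are not given in the sources used here. Of 70523 entries, 2995 controls were left out. In GEO's platform annotation, 23781 of 67528 transcript clusters carry 1 symbol, 1543 several and 42204 none. A probe set was retained (34141 were) where at least 2 arrays exceeded 4.48, the overall median. Array medians lay between 4.46 and 4.51.

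The comparison of the groups used lmFit and eBayes of limma 3.58.1 (R 4.3.3), adjusted over the retained probe sets after Benjamini and Hochberg, and the code was tested on simulated data. Calls used the thresholds of the study, more than a 2-fold change with an unadjusted P under 0.05. The text names all 40 genes, gives full values for the 5 largest and 5 smallest fold changes, for genes with an unadjusted P under 0.05 and for the widest spreads, and names 2 genes per further list by smallest P. Values of other genes were given where a role group or a proliferation marker was described. The members, lists and tests were chosen with earlier results of these data known. Of the other marker lists, 4 of 7 fibroblast genes with a value (DCN, LUM and PDGFRA not), 1 of 4 leukocyte genes and 2 of 4 endothelial genes (PECAM1 and KDR not) passed the filter. DCN and LUM exceeded the level of 4.48 in DDB2 clone 1 only, at 6.02 and 4.73, and so failed the rule of 2 arrays. Promoters came from RefSeq (GRCh38.p14). Alternatives were other filters, quantile normalization, centred arrays, an intensity trend with robust fitting, no shrinkage, the mean of probe sets, replicate blocks and each array left out. Figures were drawn with matplotlib 3.10.9 in Python 3.11.15.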

Additional observations from a re-analysis of the deposited data

How the results depend on the processing

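The median log2 fold change of the mitosis genes stayed below 0 in every setting tried, but several settings could not change it. The intensity trend with robust fitting, no shrinkage and the mean of probe sets leave each member's fold change as it is. A filter can only drop members. Normalization, the replicate blocks and arrays left out could change the median. No member passed an adjusted p under 0.05 from limma with all arrays. The count of members with an unadjusted P under 0.05, 1 on all arrays, was 0 when the filter was set at the 75th percentile. It was also 0 with an intensity trend and robust fitting, and 0 without shrinkage. Of all probe sets, 362 of 16657 had such a P with the 75th percentile filter. The trend with robust fitting gave 1126 of 34141 and no shrinkage gave 1569, against 1097 in the main fit. Members without overlap, 5 in the main fit, numbered 4 after quantile normalization and 2 after centring each array. No share of all genes is given for those settings, so the change cannot be set against all genes. The number in the titles was used as a replicate block, which sets DDB2 clone 2 aside. The count with an unadjusted P under 0.05 was then 2 (CCNB2 and CCNA2, without ECT2). The median was -0.12 and 9 genes changed sign. Over all 34141 probe sets, 1226 had such a P with this block, against 1097 without a block. With the number in the source names as a replicate block, which sets DDB2 clone 3 aside, the count was 3 (BUB1, PTTG1 and CDC25C, again without ECT2). Over all 34141 probe sets the count with this block was 1641. The study's thresholds were passed by 1 member (BUB1), and the median was -0.50. The share of all genes past these thresholds with this block is not given here. Deviations from group means of clones with the same title number had r of 0.129 (number 1) and 0.392 (number 3) across all genes. Across the mitosis genes these were 0.450 and 0.654. DDB2 clone 2 and vector clone 1, which share no number, had r of 0.329 across all genes, above that of number 1. Across the mitosis genes their r was positive too, but below that of number 1. By source names, DDB2 clone 2 and vector clone 3 share number 2. Their r was -0.329 across all genes and also negative across the mitosis genes. With 2 vector clones the deviations of one mirror those of the other, so this check cannot show whether the numbers pair the clones, and the labels do not say so. A block gives no other value for overlap or spread, which use no model. With each DDB2 array left out in turn, the count with an unadjusted P under 0.05 lay between 0 and 6, and past the study's thresholds between 0 and 2. Over all 34141 probe sets the count with such a P lay between 688 and 1504. The median standard deviation among the 2 DDB2 clones left lay between 0.265 and 0.602. With any 1 array left out, the members without overlap numbered between 5 and 30. Of all genes, 16.1% to 32.6% were then lower and 9.57% to 23.3% higher without overlap. The 30 arose without vector clone 1, where 32.6% of all genes were lower without overlap. With 1 vector clone left, that clone was assumed to vary like the DDB2 clones. The cause of these changes was not tested.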

Other observations

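Among the further lists, 3 regulators that differed widely between clones were picked after their values were seen. GADD45A, a stress-induced inhibitor of CDK1, stood at 9.50, 9.07 and 7.04 in DDB2 clones 1, 2 and 3 and at 8.92 and 7.41 in vector clones 1 and 3 (log2 values). It was thus lower in both clones titled 3, which were the 2 highest clones in 25 of 39 mitosis genes. The log2 fold change of GADD45A between the groups was 0.37 (standard error 0.903). A link between GADD45A and the mitosis genes was not tested. Over the 13 tested brakes of mitotic entry, the list it belongs to, the clone medians lay between -0.02 and 0.03. E2F7, a repressor of the E2F family, had 5.80, 5.35 and 7.46 in the DDB2 clones and 5.99 and 7.46 in the vector clones. MYBL2, the B-MYB protein that joins MuvB, had 7.27, 7.34 and 8.41 in the DDB2 clones and 7.21 and 9.00 in the vector clones. Both were high in the clones titled 3, and neither had an unadjusted P under 0.05.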
